A study of Mus musculus with 56 samples.

Results

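The genes described here encode the splicing factors of the SR and hnRNP families, together with the CLK kinases that act on SR proteins. Members were the protein-coding genes of the deposited liver table whose GENCODE symbol began with Srsf and a number or with Hnrnp, together with Tra2a, Tra2b and Clk1 to Clk4. Measured values played no part in the rule. They numbered 36 of 25415 genes, namely 12 SR genes (Tra2a and Tra2b counted among them), 20 hnRNP genes and 4 CLK genes. Srsf12 was not analysed here.

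Bulk liver RNA came from female C57BL/6J mice of 9 weeks that received food for 7 days only by day (daytime-restricted feeding, DRF) or only by night (nighttime-restricted feeding, NRF). Both regimens had 12 h of light and 12 h of darkness, and NRF was the reference. Zeitgeber time (ZT) counts hours from lights on, and each regimen was sampled at ZT0, 4, 8, 12, 16, 20 and 24. Each of the 14 groups held 4 animals with 1 library each, 56 in all, so the curves join different animals. The last time, ZT24, is 1 day after the first.

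Levels are scaled counts, which were worked back from the deposited numbers and made comparable between libraries. Differences are DRF minus NRF on the log2(scaled count + 1) scale, which understates changes of genes with low values. Adjusted p-values are from limma with Benjamini-Hochberg adjustment over all 25374 genes tested, with a threshold of 0.05. All 36 members passed the filter on low values. In bulk liver, fewer cells of a type and less RNA per cell cannot be told apart. Hepatocyte markers summed to between 91692 and 148306 scaled counts per library, and the 6 lymphocyte markers to between 0.96 and 5.20. The clock genes Dbp, Arntl, Nr1d1 and Per2 all had inverted peaks, with a median shift of 10.9 h.

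SR proteins bind exonic RNA and recruit the spliceosome through a tail rich in arginine and serine, which favours inclusion of the exon. Many hnRNP proteins bind the same pre-mRNAs and oppose that choice, and others act in RNA export, stability and translation. CLK kinases phosphorylate the tail and release SR proteins from nuclear speckles, and their activity is known to respond to body temperature. Several of these genes limit their own output through exons or introns that expose the transcript to nonsense-mediated decay.

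Promoters of 4 members whose NRF peak lay in the night are shown as examples. Other members, such as Srsf1, Srsf3 and Srsf10, also peaked in the night under NRF, and joint movement was not tested. The sequences are from RefSeq (GRCm38.p6), lie within the 250 bases before a start site and were limited to bases outside annotated exons. They are chr11:116853095-116853294 on the minus strand, chr2:162931258-162931507 on the plus strand, chr16:22266006-22266255 on the minus strand and chr14:52104029-52104271 on the minus strand. Capitals mark TGACG, the core of the cAMP response element, CCAAT and TATAAA, each on either strand.
Srsf2: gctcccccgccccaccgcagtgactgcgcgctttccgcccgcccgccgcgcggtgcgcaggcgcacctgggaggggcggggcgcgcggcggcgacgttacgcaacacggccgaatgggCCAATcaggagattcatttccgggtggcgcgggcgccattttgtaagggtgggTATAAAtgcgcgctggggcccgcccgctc
Srsf6: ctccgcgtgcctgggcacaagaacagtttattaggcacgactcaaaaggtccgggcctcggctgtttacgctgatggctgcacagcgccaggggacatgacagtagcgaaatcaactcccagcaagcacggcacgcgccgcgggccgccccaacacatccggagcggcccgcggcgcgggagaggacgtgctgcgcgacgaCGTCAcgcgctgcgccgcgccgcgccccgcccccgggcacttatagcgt
Tra2b: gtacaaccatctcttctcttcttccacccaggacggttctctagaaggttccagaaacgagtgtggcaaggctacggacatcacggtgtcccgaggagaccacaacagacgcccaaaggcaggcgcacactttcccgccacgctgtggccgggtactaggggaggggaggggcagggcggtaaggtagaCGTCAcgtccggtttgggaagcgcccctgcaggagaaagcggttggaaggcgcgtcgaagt
Hnrnpc: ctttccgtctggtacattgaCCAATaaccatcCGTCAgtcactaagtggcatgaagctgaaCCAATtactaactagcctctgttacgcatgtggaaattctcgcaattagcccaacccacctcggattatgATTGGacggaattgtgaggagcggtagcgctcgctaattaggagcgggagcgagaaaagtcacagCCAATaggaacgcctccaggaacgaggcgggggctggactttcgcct
The 4 stretches differed in what they held. Srsf2 held 1 CCAAT and 1 TATAAA, Srsf6 and Tra2b each held 1 TGACG, and Hnrnpc held 4 CCAAT and 1 TGACG. RefSeq promoters were matched for 33 of the 36 members (not for Clk1, Hnrnpll and Hnrnpul2), with 45 start sites, several of which overlap. Over the 250 bases, TGACG occurred in 25 of the 45 windows (55.6%) and in 17.8% of all 32851 promoters. CCAAT occurred in 22 windows and in 33.9% of all promoters. The GC box GGGCGG occurred in 37 windows and in 32.7% of all promoters. The member windows had a median GC content of 65.2%, against 52.4% for all promoters, and its part in these shares was not tested. The E-box CACGTG, which the clock proteins BMAL1 and CLOCK bind, occurred in 4 windows (Clk2, Hnrnpa3, Hnrnpd and Hnrnpf) and in 6.02% of all promoters. The heat shock motif GAANNTTC occurred in 5 windows (Hnrnpa2b1, Hnrnpf, Hnrnpl, Srsf9 and Tra2b) and in 6.69% of all promoters. The whole cAMP response element TGACGTCA, which holds TGACG on both strands, occurred in Clk4 and Tra2a and in 1.55% of all promoters. TATAAA occurred in Hnrnpm, Srsf2 and Srsf3 and in 12.4% of all promoters. These matches describe letters alone.

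The 24-h cosine was fitted per regimen to find the splicing factor genes that oscillated under each feeding schedule. Under DRF 17 of 36 members were rhythmic, where 34.8% of all genes were, and under NRF 24 of 36, where 43.1% of all genes were. The DRF count was 12 without replicate 1 or 2 of every group and 11 without replicate 3 or 4. Rhythms in both regimens were called for 13 members (against 23.1% of all genes), in DRF alone for 4, in NRF alone for 11 and in neither for 8. Both-regimen rhythms were called for 8 of 12 SR genes, 4 of 20 hnRNP genes and 1 of 4 CLK genes.

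The rhythm itself differed between regimens in 23 of 36 members, against 38.4% of all genes. The 23 were 10 of 12 SR genes, 12 of 20 hnRNP genes and Clk3. They held all 13 members that were rhythmic in both regimens. Of the 4 rhythmic in DRF alone, the difference passed the threshold for Hnrnpab and Hnrnpll, and of the 11 rhythmic in NRF alone, for 8. The median fitted peak-to-trough fold over the members was 1.23 under DRF and 1.34 under NRF, against 1.13 and 1.15 over all genes. The amplitude was larger under NRF in 25 of 36 members and in 15109 of 25374 genes. Of all 25374 genes tested, 13715 had a mean scaled count of at least 1, as had every member. The scale understates changes of the lower genes. The part of expression level in these and the other comparisons with all genes was not tested.

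**Figure D1:**
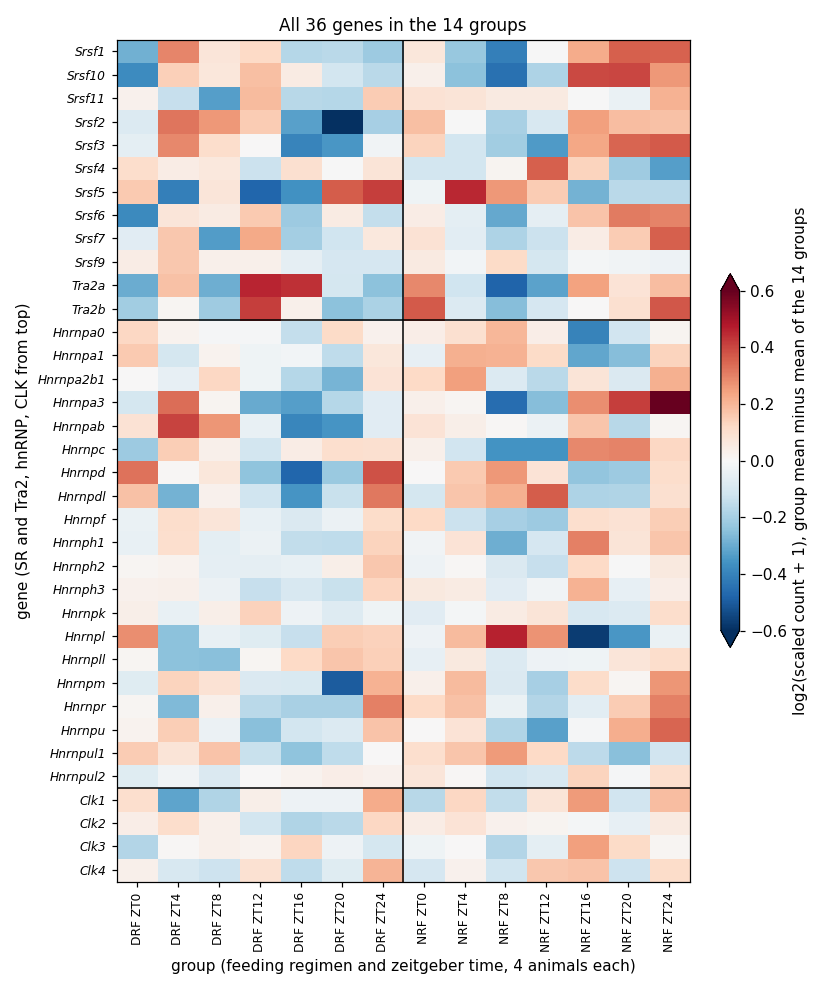
Group means of log2(scaled count + 1) for all 36 genes (rows: SR, hnRNP and CLK genes), each minus the mean of its 14 groups (colour), by zeitgeber time under DRF and NRF (columns). Srsf2 was lowest at DRF ZT20, Hnrnpl lowest at NRF ZT16 and Hnrnpa3 highest at NRF ZT24, while Hnrnpk and Hnrnpul2 stayed close to their means.

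Most SR genes rhythmic in both regimens had peaks at least 8 h apart. Among the 8 SR genes rhythmic in both regimens, 6 were phase-inverted, with peaks 8 to 12 h apart (Srsf1, Srsf2, Srsf3, Srsf6, Srsf10 and Tra2b), and Srsf5 and Tra2a lay between 4 and 8 h. The median shift of the 8 was 9.59 h, against 8.15 h over the 5860 genes of the table rhythmic in both regimens, of which 51% were phase-inverted. The 6 inverted SR genes peaked between ZT5.72 and ZT11.9 under DRF and between ZT19.2 and ZT22.1 under NRF. Srsf5 ran the opposite way, with a peak at ZT22.9 (SE 0.89) under DRF and at ZT6.63 (SE 0.77) under NRF.

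Srsf2 (ENSMUSG00000034120, chr11:116849901-116853094) encodes SC35, an SR protein that marks nuclear speckles. Gene coordinates are those of GENCODE on GRCm38. Its group means from ZT0 to ZT24 were 10.8, 14.6, 13.9, 12.9, 8.97, 7.16 and 9.88 scaled counts under DRF and 13.2, 11.5, 9.93, 10.7, 13.9, 13.2 and 13.1 under NRF. At ZT20 the animals had 7.38, 6.29, 6.83 and 8.15 scaled counts under DRF and 14, 12.6, 13.02 and 13.2 under NRF, and at ZT4 they had 15.6, 14.5, 13.9 and 14.3 scaled counts under DRF and 11.7, 11.6, 10.7 and 11.9 under NRF. Every DRF animal was below every NRF animal at ZT20 and above every NRF animal at ZT4. The difference was -0.80 (SE 0.08, adjusted p = 3.62e-10) at ZT20 and 0.32 (SE 0.08, adjusted p = 0.002598) at ZT4, and Srsf2 passed the threshold at each of the 7 times. The fitted peak lay at ZT20.2 (SE 0.61) under NRF and at ZT7.04 (SE 0.28) under DRF, with a peak-to-trough fold of 1.35 and 1.88. Srsf2 was also the single member whose rhythm-adjusted mean differed between regimens (difference -0.11, SE 0.04, adjusted p = 0.0497), where 6.71% of all genes did and 2.63% were lower under DRF. That call was lost in each of the 4 fits that left out a replicate number. Of its exonic bases, 25.3% are overlapped by exons of Mettl23 and Mfsd11 on the other strand, and the use of strand in counting is not given in the sources used here.

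Srsf10 (ENSMUSG00000028676, chr4:135855747-135869908) encodes a splicing regulator that becomes a general repressor when heat shock removes its phosphates. At ZT8 its animals had 4.96, 4.63, 4.67 and 4.68 scaled counts under DRF and 3.22, 3.59, 2.56 and 2.76 under NRF, and at ZT20 they had 3.98, 4.34, 3.81 and 4.18 scaled counts under DRF and 6.12, 6.64, 5.804 and 6.33 under NRF. The groups did not overlap at either time, and their order was opposite. The difference was 0.52 (SE 0.09, adjusted p = 2.93e-05) at ZT8 and -0.51 (SE 0.09, adjusted p = 2.66e-05) at ZT20, and all 7 times passed. The peak lay at ZT10.5 (SE 0.79) under DRF and at ZT19.2 (SE 0.32) under NRF, with folds of 1.33 and 1.87.

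Srsf3 (ENSMUSG00000071172, chr17:29032628-29043373) encodes the smallest SR protein, which also joins splicing to mRNA export. At ZT20 its animals had 6.11, 6.92, 5.89 and 6.48 scaled counts under DRF and 11.1, 13.01, 9.11 and 10.8 under NRF, with no overlap. At ZT12 they had 9.61, 8.28, 7.95 and 7.68 scaled counts under DRF and 7.83, 5.63, 5.9 and 6.37 under NRF, where the lowest DRF animal lay below the highest NRF animal. The difference was -0.70 (SE 0.11, adjusted p = 3.13e-06) at ZT20 and 0.34 (SE 0.11, adjusted p = 0.0211) at ZT12. The threshold was passed at 6 of 7 times, ZT0 being the other (adjusted p = 0.256). Its folds were close, 1.58 under DRF and 1.62 under NRF, while the peaks lay 8.95 h apart (SE 0.67).

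Srsf6, which encodes an SR protein of the same speckles, and Srsf1, the founding SR protein, were lower under DRF at the end of the night. At ZT24 Srsf6 had 10.04, 11.04, 10.6 and 10.6 scaled counts under DRF and 15.1, 15.5, 13.6 and 14.7 under NRF, a difference of -0.44 (SE 0.10, adjusted p = 0.000991). Srsf1 at ZT24 had 6.87, 5.49, 7.496 and 5.35 scaled counts under DRF and 7.85, 8.24, 9.85 and 14.2 under NRF. The Srsf1 groups did not overlap, and the difference was -0.57 (SE 0.19, adjusted p = 0.0395), which lost the threshold without replicate 2 (adjusted p = 0.144) or replicate 4 (adjusted p = 0.479), and with the values as deposited (adjusted p = 0.0687). Its spread was wide, with means of 9.13 ± 2.95 and 10.03 ± 2.899 (SD, n = 4) at NRF ZT16 and ZT24. Srsf1 had the widest shift among the members rhythmic in both regimens, 11.4 h (SE 1.39).

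Tra2a and Tra2b encode a pair of SR-like proteins that bind exonic enhancers rich in GAA, and the DRF means of both were highest at ZT12. Tra2a at ZT12 had 4.58, 3.28, 2.92 and 3.97 scaled counts under DRF and 1.72, 1.68, 1.705 and 1.71 under NRF, a difference of 0.78 (SE 0.16, adjusted p = 0.000416). At ZT0 the direction was opposite, with means of 1.76 ± 0.298 (SD, n = 4) under DRF and 3.18 ± 0.822 under NRF, a difference of -0.59 (SE 0.16, adjusted p = 0.00786). For Tra2b the ZT12 means were 7.305 ± 1.39 with DRF and 4.75 ± 0.489 with NRF (SD, n = 4), and the ZT0 means 4.36 ± 0.764 and 6.99 ± 1.02. Both of these differences passed, in opposite directions, at 0.52 (SE 0.13, adjusted p = 0.00432) and -0.58 (SE 0.13, adjusted p = 0.00122).

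Srsf5 (ENSMUSG00000021134, chr12:80945504-80950507), which encodes an SR protein linked to insulin signalling, was low at ZT4 under DRF, where Srsf2 and Srsf3 were high. Its group means from ZT0 to ZT24 were 28.8, 19.1, 26.9, 18.6, 19.7, 33.4 and 34.7 scaled counts under DRF and 25.4, 35.3, 30.7, 28.5, 20.9, 22.8 and 22.9 under NRF. At ZT4 its animals had 18.03, 22.01, 20.2 and 16.2 scaled counts under DRF and 36.6, 33.3, 33.7 and 37.7 under NRF, and at ZT24 they had 41.2, 33.6, 35.8 and 28.1 scaled counts under DRF and 27.3, 20.2, 19.8 and 24.4 under NRF. No animal of one regimen reached the range of the other at either time. The difference was -0.86 (SE 0.13, adjusted p = 2.85e-06) at ZT4, -0.63 (SE 0.13, adjusted p = 0.000504) at ZT12 and 0.58 (SE 0.13, adjusted p = 0.00152) at ZT24.

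**Figure D2:**
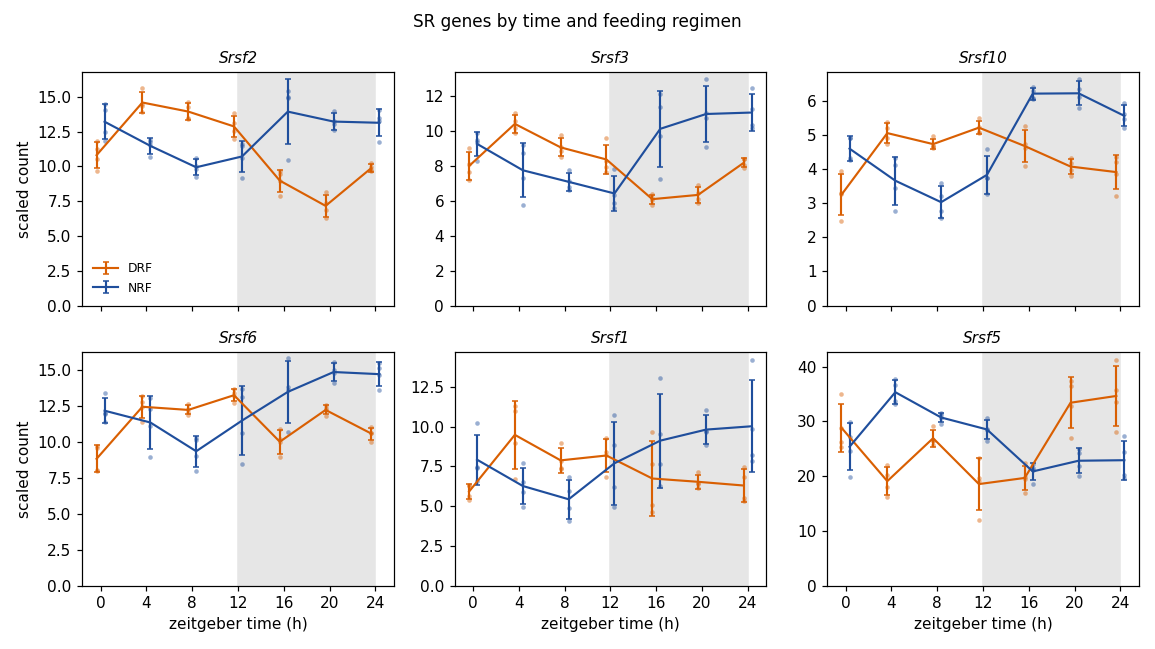
Scaled counts of 6 SR genes (vertical axes, from 0) against zeitgeber time in h under DRF (orange) and NRF (blue), with points for the 4 animals of each group, lines through group means, bars of 1 SD and grey for the dark phase. Group means of Srsf2, Srsf3, Srsf10, Srsf6 and Srsf1 were higher under DRF from ZT4 to ZT12 and lower from ZT16 to ZT24, and Srsf5 had the opposite order at ZT4 and ZT24.

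The remaining SR genes moved less or in 1 regimen. Srsf4 was rhythmic under NRF alone (peak ZT12.1, fold 1.43, adjusted p = 2.36e-06), and its means at ZT12 were 35.3 ± 0.631 (SD, n = 4) for DRF and 50.4 ± 9.02 for NRF. Of its exonic bases, 43.02% are overlapped by exons of Gm12992 on the other strand. Srsf7 was rhythmic under NRF alone (fold 1.34), Srsf9 under DRF alone (fold 1.15), and Srsf11 in neither.

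The hnRNP genes rhythmic in both regimens split among the phase classes. Hnrnpl was phase-inverted (8.94 h, SE 1.17) and Hnrnpdl lay between (6.37 h, SE 1.57). Hnrnpd and Hnrnpul1 were phase-locked, that is, within 4 h (3.55 h, SE 0.92, and 2.52 h, SE 0.86), as were 24.4% of all genes rhythmic in both regimens. Under NRF the 4 peaked by day, between ZT6.16 and ZT7.88.

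Hnrnpl (ENSMUSG00000015165, chr7:28808541-28822266), which encodes a protein that binds CA-rich RNA, had the largest fold of any member, 1.90 under NRF against 1.25 under DRF. Its group means from ZT0 to ZT24 were 24.1, 16.5, 19.1, 18.8, 17.8, 21.98 and 21.9 scaled counts under DRF and 19.3, 22.9, 27.6, 24.1, 13.01, 15.3 and 19.2 under NRF. At ZT8 its animals had 18.7, 20.1, 19.5 and 18.1 scaled counts under DRF and 28.1, 30.7, 24.5 and 27.3 under NRF, and at ZT20 they had 21.7, 20.9, 23.6 and 21.7 scaled counts under DRF and 14.8, 15.9, 14.7 and 15.6 under NRF. The groups were separate at both times, in opposite order. The difference was -0.51 (SE 0.08, adjusted p = 4.18e-06) at ZT8 and 0.50 (SE 0.08, adjusted p = 4.46e-06) at ZT20. The threshold was passed at 6 of 7 times, and at ZT24 the adjusted p was 0.125.

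Hnrnpd encodes AUF1, a protein that binds AU-rich elements and speeds mRNA decay. Its means at ZT24 and ZT16 were 6.61 ± 0.457 and 3.198 ± 0.392 scaled counts (SD, n = 4) under DRF and 5.32 ± 0.807 and 3.99 ± 0.711 under NRF. Hnrnpd passed the test over the 7 contrasts (adjusted p = 0.00483), although no single time did. Hnrnpdl, its close relative, was lower under DRF at ZT12, where its animals had 5.18, 3.76, 3.65 and 4.095 scaled counts under DRF and 6.67, 6.73, 5.26 and 6.14 under NRF. The groups did not overlap, and the difference was -0.48 (SE 0.11, adjusted p = 0.000982). Without replicate 2 of every group it was -0.41 (adjusted p = 0.05002).

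Hnrnpc (ENSMUSG00000060373, chr14:52073377-52104028), whose protein coats nascent transcripts and binds runs of uridine, was rhythmic under NRF (peak ZT19.9, fold 1.63, adjusted p = 6.15e-09). Under DRF the 24-h fold was 1.03 (adjusted p = 0.972), and the rhythms differed (adjusted p = 1.18e-05). Its DRF groups at ZT0 and ZT24, which a 24-h curve takes as the same phase, differed, as given below. At ZT8 its animals had 74.2, 76.9, 61.5 and 76.6 scaled counts under DRF and 58.1, 56.2, 52.7 and 52.2 under NRF. All DRF animals lay above all NRF animals there, and the difference was 0.39 (SE 0.07, adjusted p = 0.000146). At ZT16 the order of the means was reversed, 72.9 ± 2.63 (SD, n = 4) under DRF and 86.6 ± 7.76 under NRF, a difference of -0.24 (SE 0.07, adjusted p = 0.01799).

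Hnrnpab (ENSMUSG00000020358, chr11:51600100-51606847), which encodes an RNA-binding protein of the A/B type, had the converse pattern. It was rhythmic under DRF (peak ZT5.6, fold 1.77, adjusted p = 3.88e-07), had a fold of 1.02 under NRF (adjusted p = 0.984), and the rhythms differed (adjusted p = 0.000214). At ZT16 its animals had 31.3, 28.5, 27.8 and 31.9 scaled counts under DRF and 34.8, 41.9, 66.7 and 39.9 under NRF. The groups did not overlap, and the difference was -0.56 (SE 0.14, adjusted p = 0.00352). Replicate 3 held the highest NRF value, and without replicate 3 of every group the difference was -0.33 (adjusted p = 0.143). Of the exonic bases of Hnrnpab, 29.1% are overlapped by exons of Phykpl on the other strand.

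Hnrnpll, known for splicing of Cd45 in lymphocytes, was rhythmic under DRF (peak ZT18.8, fold 1.38, adjusted p = 1.75e-07). At ZT4 it had 10.7, 11.3, 10.7 and 10.97 scaled counts under DRF and 15.3, 12.2, 12.9 and 14.5 under NRF, a difference of -0.30 (SE 0.07, adjusted p = 0.000919) with no overlap. Hnrnpa3, another A/B-type protein, was rhythmic under NRF (peak ZT20.7, fold 1.83, adjusted p = 0.00247). Its spread was wide, with a mean of 19.6 ± 4.89 (SD, n = 4) at NRF ZT24, and no single time passed. Whether reads of Hnrnpa1 and Hnrnpa3 were shared with processed pseudogenes was not tested. The other 7 hnRNP genes rhythmic under NRF alone had folds from 1.23 (Hnrnpa2b1) to 1.49 (Hnrnpa1). Hnrnpk, Hnrnpm, Hnrnph2, Hnrnph3 and Hnrnpul2 were rhythmic in neither regimen.

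**Figure D3:**
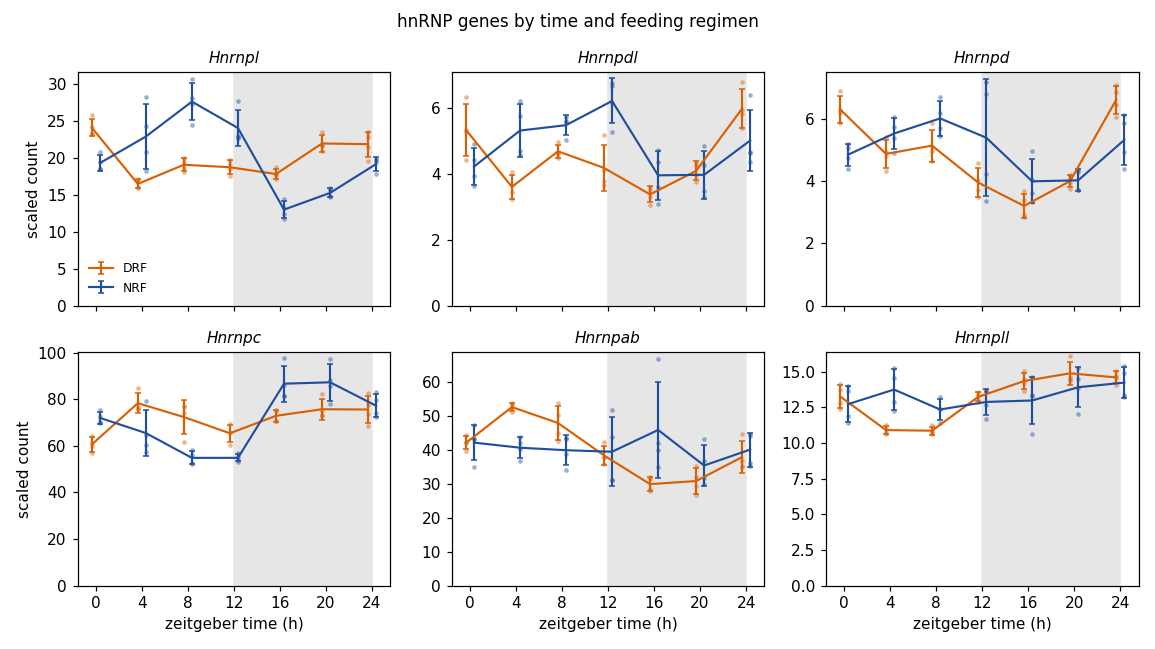
Scaled counts of 6 hnRNP genes (vertical axes, from 0) against zeitgeber time in h under DRF (orange) and NRF (blue), with the 4 animals as points, group means joined, bars of 1 SD and grey for the dark phase. Hnrnpl was higher under NRF at ZT8 and lower at ZT20, Hnrnpc swung under NRF with a fold of 1.63 and Hnrnpab under DRF with a fold of 1.77.

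CLK genes had low levels and small rhythms. Per kilobase of exon they averaged between 0.448 (Clk2) and 0.836 (Clk3) scaled counts, against 16.5 for Hnrnpc, the highest member, and 3.95 for Srsf2. Clk3 was rhythmic in both regimens (peaks at ZT12.7, SE 1.35, and ZT18.3, SE 0.76), with folds of 1.15 and 1.24, and its rhythm differed between them (adjusted p = 0.00685). At ZT8 its animals had 7.07, 7.23, 7.94 and 6.61 scaled counts under DRF and 6.597, 5.96, 6.27 and 5.64 under NRF. This was its largest difference at any time, and at 0.21 (SE 0.08, adjusted p = 0.0748) it missed the threshold. Of its exonic bases, 15.2% are overlapped by exons of Edc3 on the other strand.

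Clk2 was rhythmic under DRF alone (peak ZT3.83, fold 1.26, adjusted p = 0.000775), and its rhythm was not shown to differ from that of NRF (adjusted p = 0.154). Clk1 (ENSMUSG00000026034, chr1:58410189-58424066) was not rhythmic in either regimen. At ZT4 its animals had 2.87, 2.496, 2.63 and 2.99 scaled counts under DRF and 4.88, 3.23, 4.27 and 4.07 under NRF, with no overlap. That difference of -0.44 (SE 0.15, adjusted p = 0.0315) lost the threshold in each fit that left out a replicate number (adjusted p from 0.0633 to 0.123). Clk4 ranged from a group mean of 3.04 ± 0.131 (SD, n = 4) at DRF ZT16 to 4.19 ± 0.415 at DRF ZT24 and passed at no time.

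**Figure D4:**
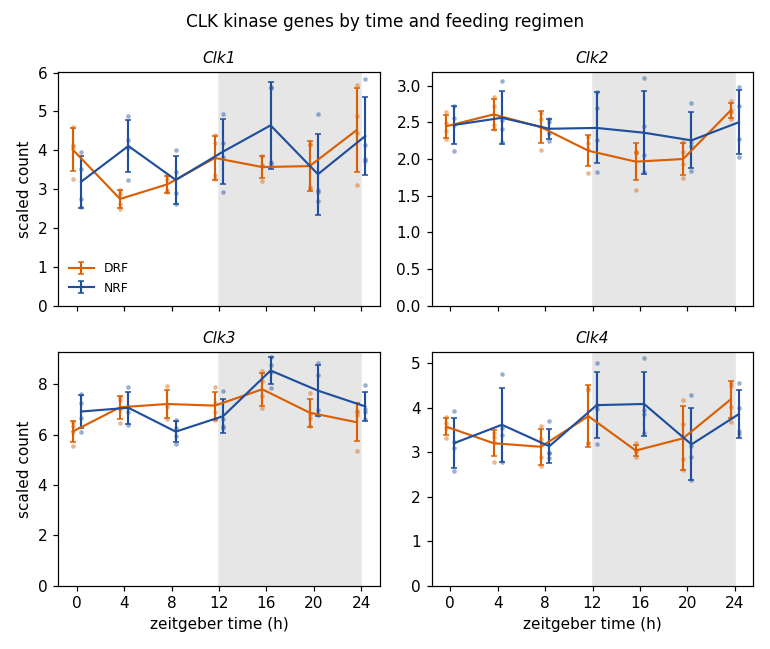
Scaled counts of Clk1 to Clk4 (vertical axes, from 0) against zeitgeber time in h under DRF (orange) and NRF (blue), with the 4 animals as points, group means joined, bars of 1 SD and grey for the dark phase. Clk1 at ZT4, where the DRF animals lay below the NRF animals, was the single difference at a time that passed the threshold among the 4 genes.

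Peak times of the 13 members rhythmic in both regimens fell into 3 areas. The 6 inverted SR genes, Tra2a and Clk3 peaked in the night under NRF and from ZT5.72 to ZT13.7 under DRF. Srsf5 and Hnrnpl peaked in the light phase under NRF and late in the night under DRF. Hnrnpd, Hnrnpdl and Hnrnpul1 peaked in the light phase in both regimens. The DRF rhythm was also set against the NRF rhythm moved by exactly 12 h at the same amplitude. These differed in 24 of 36 members, where 33.9% of all genes did, and in 14 without replicate 4 of every group. Passing can also come from a changed amplitude or a missing rhythm, so it does not measure the shift alone. The 24 held Hnrnpc, with no rhythm called under DRF, and Hnrnph2, with none in either regimen. Srsf2, Srsf3, Srsf5, Srsf10 and Hnrnpl were among the 24. Srsf1, Srsf6 and Tra2b did not pass that test (adjusted p = 0.571, 0.176 and 0.531).

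**Figure D5:**
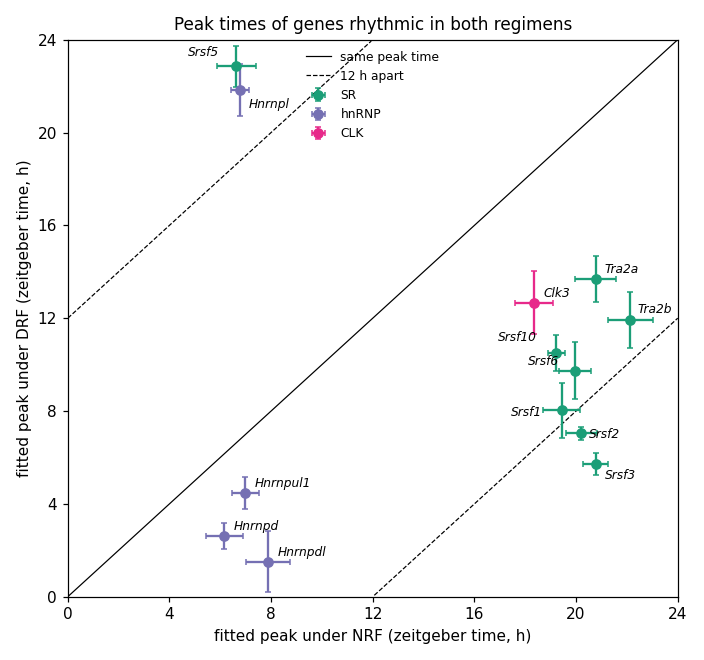
Fitted peak time under DRF (vertical axis, h) against that under NRF (horizontal axis, h) for the 13 genes rhythmic in both regimens, with bars of 1 SE, a solid line of equal peaks and dashed lines 12 h away. The 6 inverted SR genes, Tra2a and Clk3 lie at the lower right, Hnrnpl and Srsf5 at the upper left, and Hnrnpd, Hnrnpdl and Hnrnpul1 at the lower left.

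Regimens were also compared at matched times, without a curve. By the test over the 7 contrasts 21 of 36 members differed, against 42% of all genes. At ZT0 7 members differed (16% of all genes), of which 1 was higher under DRF and 6 lower, against 7.95% and 8.08% of all genes (2 and 4 with the values as deposited). ZT4 gave 11 members (20.2%), with 4 higher and 7 lower, against 10.7% and 9.42%. ZT8 gave 6 members (12.9%), with 5 higher and Hnrnpl lower, against 5.68% and 7.2%. Over ZT4 and ZT8, Srsf2, Srsf3, Srsf10 and Hnrnpc were higher at both times, and Hnrnpl lower. ZT12 gave 11 members (15.1%), with 7 higher and 4 lower, against 6.97% and 8.1% (7 and 2 with the values as deposited). ZT16 gave 8 members (15%), with Hnrnpl higher and 7 lower, against 8.73% and 6.23%. For ZT20 the count was 6 members (13.7%), with Srsf5 and Hnrnpl higher and 4 lower, against 7.7% and 5.98%. For ZT24 it was 9 members (14%), with Srsf4 and Srsf5 higher and 7 lower, against 7.1% and 6.94%. All 9 called at ZT24 were SR genes. Counts fell to 3 at ZT0 without replicate 1, to 6 at ZT4 without replicate 4, to 7 at ZT12 without replicate 2, and to 4 at ZT8 without replicate 4 and at ZT20 without replicate 1. The balance at ZT12 was not stable, with 4 higher and 4 lower without replicate 1, 4 and 3 without replicate 2, 5 and 6 without replicate 3, and 5 and 4 without replicate 4. At ZT4 it was 6 and 6 without replicate 3, at ZT0 2 and 5, and at ZT16 2 and 5. The median difference over the 12 SR genes was 0.23 at ZT12 and -0.38 at ZT24, and over the 20 hnRNP genes 0.03 and -0.03, where the medians of all genes were -0.0018 and 9.44e-06.

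A 12-h component beside the 24-h rhythm was called under DRF for 8 members (Srsf2, Srsf5, Srsf7, Srsf11, Tra2a, Hnrnpd, Hnrnpdl and Hnrnpl), against 4.79% of all genes, and under NRF for Hnrnpl, against 2.04%. Srsf5 had the lowest adjusted p under DRF, 0.000683, with means of 19.1 ± 2.54 (SD, n = 4) at ZT4, 26.9 ± 1.54 at ZT8 and 18.6 ± 4.75 at ZT12. By limma the component differed between regimens in 0 members (3 at an unadjusted p under 0.05) and in 0.114% of all genes. The count under DRF was 1, 4 and 3 without replicate 1, 2 and 4, and Hnrnpl under NRF was lost without replicate 1. Between ZT0 and ZT24, which are 1 day apart, Hnrnpc was higher at ZT24 under DRF (60.6 ± 3.01 and 75.6 ± 5.93 scaled counts, SD, n = 4, adjusted p = 0.0122), where 3.24% of all genes differed and 1.51% were higher. Srsf7 was higher at ZT24 under NRF (adjusted p = 0.0489), where 7.98% differed and 2.37% were higher. By limma the change between these times differed between regimens in 0 members (3 at an unadjusted p under 0.05) and in 0.00394% of all genes. Hnrnpc lost the threshold without replicate 2, 3 or 4, and so did Srsf7. With the values as deposited, more members differed between these times in both regimens, as given below.

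The rest of the splicing machinery was counted in the same fits. Of 44 genes of the spliceosome core, 26 were rhythmic under DRF, 22 under NRF and 13 in both, where 34.8%, 43.1% and 23.1% of all genes were. At ZT4, 9 were higher and 1 lower under DRF, where 10.7% and 9.42% of all genes were. At ZT16, 1 was higher and 11 were lower, against 8.73% and 6.23% of all genes. Sf3b1, Snrpd1 and U2af1 had the smallest adjusted p over the 7 contrasts. U2af1, which recognises the end of the intron, had differences of 0.38 (SE 0.10, adjusted p = 0.00495) at ZT12 and -0.50 (SE 0.10, adjusted p = 0.000254) at ZT16.

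Of 9 kinases, phosphatases and import factors of SR proteins, 5 were rhythmic under DRF and 6 under NRF, where 34.8% and 43.1% of all genes were, led by Srpk1, Srpk2 and Ppp1ca. Srpk1, which phosphorylates SR proteins in the cytoplasm, peaked at ZT10.9 under DRF and ZT18.8 under NRF. Of 47 other splicing regulators tested, 17 were rhythmic under DRF and 20 under NRF, which is close to the 34.8% and 43.1% of all genes. At ZT16, 3 were higher and 14 lower, against 8.73% and 6.23% of all genes. Their leading genes were Ptbp3, Tardbp and Khdrbs1, of which the repressor Ptbp3 was lower under DRF at ZT4, by -0.40 (SE 0.07, adjusted p = 5.89e-05), and higher at ZT16, by 0.43 (SE 0.07, adjusted p = 4.02e-05). Of 14 nonsense-mediated decay factors, 8 were rhythmic under DRF and 7 under NRF, against the same 34.8% and 43.1%, led by Upf1, Smg6 and Smg5. Upf1, the helicase of that pathway, was higher under DRF at ZT4 by 0.83 (SE 0.09, adjusted p = 6.72e-10).

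Genes induced by heat and cold also differed between regimens, and were counted at ZT4 and ZT16. All 8 on the list differed by the test over the 7 contrasts, where 42% of all genes did. At ZT4, 6 were higher and 1 lower under DRF, against 10.7% and 9.42% of all genes, and at ZT16, 6 were lower, against 6.23%. Hsph1, a heat-inducible chaperone, was higher at ZT4 by 2.71 (SE 0.31, adjusted p = 9.38e-09), and Hspa8 and Hspa1b by 1.99 and 3.17. Cirbp, the cold-inducible RNA-binding protein, had a difference of -1.02 (SE 0.19, adjusted p = 7.74e-05) at ZT4 and peaked at ZT0.756 under DRF and ZT6.87 under NRF. The 8 genes summed to between 768 and 1061 scaled counts at DRF ZT4 and between 228 and 361 at DRF ZT24. At NRF ZT16 the sum lay between 751 and 1122, and at NRF ZT4 between 182 and 282. The part of these 8 genes in the changes of the splicing factors was not tested.

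Gene length also moved with the sampling groups. The rank correlation across genes of length with the deviation of a library from the mean lay between -0.297 and -0.0643 in the DRF libraries of ZT0, ZT4 and ZT8 and between -0.0031 and 0.2502 in those of ZT12 to ZT24. In the NRF libraries it lay between -0.321 and 0.169 at ZT0, ZT4 and ZT8 and between -0.1004 and 0.302 from ZT12 to ZT24, so that these ranges overlapped. ZT0 and ZT24, the same clock time a day apart, differed in it, with -0.197 to -0.0643 and 0.111 to 0.2502 under DRF and -0.321 to 0.0318 and 0.0566 to 0.263 under NRF. Animals of a group also differed, as at NRF ZT4, with -0.227 to 0.169. Genes are not independent replicates. With the length trend removed from each library, 12 members in place of 6 differed at ZT20, of which 2 were higher and 10 lower. Marker genes of Kupffer cells summed to between 507 and 1204 scaled counts per library, of sinusoidal endothelial cells to between 375 and 528, of stellate cells to between 646 and 923 and of cholangiocytes to between 20.8 and 41.1. At ZT4, 2 of 5 hepatocyte markers were higher under DRF, and 3 of 6 endothelial, 2 of 6 lymphocyte and 1 of 6 cholangiocyte markers were lower. Of all genes, 10.7% were higher and 9.42% lower at ZT4. Over the 7 contrasts 3 hepatocyte, 5 endothelial, 3 cholangiocyte, 2 Kupffer, 2 stellate and 0 lymphocyte markers differed, where 42% of all genes did. The part of cell types in the results was not tested.

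Transcript values were used to ask whether the ratio of noncoding transcripts (retained introns or targets of decay) to coding transcripts changed, for the 27 members with both kinds whose mean was at least 1 scaled count for the coding and 0.1 for the noncoding transcripts. Hnrnph3 has both kinds but fell below the limit for coding transcripts. By limma the ratio was rhythmic under DRF for Srsf2 and Tra2a (adjusted p = 0.0322 and 0.0463, where 2.89% of 5788 genes passed), both lost without any 1 replicate number. The Tra2a noncoding share ran from a mean of 100% at DRF ZT0 to 0% at DRF ZT12. It was 50 ± 57.7% at DRF ZT20 (SD, n = 4). Where a sum is 0, the ratio depends on the 0.1 added to both sums. Under NRF the ratio was rhythmic for 0 members, with 4 at an unadjusted p under 0.05, where 4.75% of genes passed. The rhythm of the ratio differed between regimens for Hnrnpdl (adjusted p = 0.0341), where 4.04% of genes did, and this was lost without replicate 1. By limma it differed in 0 members over the 7 contrasts (5 at an unadjusted p under 0.05, 3.44% of genes) and in 0 members in its mean (4 at an unadjusted p under 0.05, 0.0691% of genes). Values of single transcripts carry more doubt than those of genes. For Hnrnpll and Hnrnpu noncoding transcripts would take 98.8% and 98.6% of the total. Shares were also large for Srsf3 (84.4%), Clk1 (77.8%) and Hnrnpa1 (70.8%), and small for others, such as Hnrnpul2 (0.69%). No share, that of Tra2a included, is read as a level.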

How the data were processed

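Liver RNA from 56 mice in 14 groups was analysed. Per the labels, ribosomal RNA was depleted and libraries were strand-specific with paired reads, although the molecule field says polyA RNA. The submitters' processing notes list CASAVA 1.8, featureCounts 1.5.0-p3, mm10 and GRCm38.p6, without roles. The gene and transcript values that the authors deposited, named TPM, are treated as scores. For genes, value times exon length followed a logarithm of 1 plus a scaled whole count. For transcripts the same form was assumed and fitted per library on genes with 1 transcript. Of the values used in that fit, 41.5% to 44.4% per library lay within 2% of it. Counts were recovered with exon lengths of GENCODE vM21 for 25374 of 25415 genes. They sum to between 305.4 and 685.4 M per library, far above the depth of the study, so they are not reads, and precision rests on the spread between animals. Srsf7, Hnrnpm and Hnrnpul2 needed a length found from the values, and Hnrnpc and Hnrnpul1 passed as whole counts under a wider tolerance. The circRNA table was not used. Same-group animals are separate, so p-values from group means rest on their spread, pooled over the 14 groups and moderated across genes. Rhythm p-values also take in the misfit of group means to the curve.

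Tests used limma 3.58.1 in R 4.3.3 on log2(scaled count + 1) after a filter that kept mean deposited values from 0.1 upwards (0 genes removed), with a 24-h cosine per regimen or 14 group means, and were checked on simulated data. Named members were the 4 CLK genes and, among SR and among hnRNP genes, the 5 with the smallest adjusted p over the 7 contrasts and the 5 with the largest rhythmic fold. For other lists the 3 genes with the smallest adjusted p were named. Tra2b, Srsf4, Srsf7, Srsf9 and single genes of other lists were added after their values were seen. Members and lists were chosen with earlier results of these data known. Promoter windows were searched with Python 3.11.15. Alternatives were other scalings, pseudocounts, filters, a length correction, left-out times and replicates, a replicate block and rank tests.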

Additional observations from a re-analysis of the deposited data

Results flagged for a closer look

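For the 18 members named by the rule above, 252 groups of 4 animals were searched for a single animal far from the other 3, and 11 were found. Chance flags about 1 in 20 groups. Clk1 at NRF ZT20 had 4.95 scaled counts in replicate 1, above the range of 2.702 to 2.97 of the others. Clk2 at DRF ZT16 had 1.58 scaled counts in replicate 3, below the range of 2.09 to 2.1 of the others. Clk3 at DRF ZT24 had 5.36 scaled counts in replicate 2, below the range of 6.76 to 6.92 of the others. Clk4 at NRF ZT8 had 3.71 scaled counts in replicate 1, above the range of 2.87 to 2.98 of the others. Srsf2 at NRF ZT16 had 10.4 scaled counts in replicate 3, below the range of 14.9 to 15.4 of the others. Srsf10 at DRF ZT8 had 4.96 scaled counts in replicate 1, above the range of 4.63 to 4.68 of the others. Tra2a at DRF ZT8 had 2.72 scaled counts in replicate 3, above the range of 1.47 to 1.52 of the others. Hnrnpl at NRF ZT12 had 27.7 scaled counts in replicate 3, above the range of 22.8 to 22.9 of the others. Hnrnpc at DRF ZT4 had 84.8 scaled counts in replicate 4, above the range of 75.7 to 76.7 of the others. Hnrnpdl at NRF ZT24 had 6.37 scaled counts in replicate 4, above the range of 4.35 to 4.66 of the others. Hnrnpa3 at DRF ZT12 had 5.49 scaled counts in replicate 3, below the range of 11.6 to 11.96 of the others. Each of these animals was kept in the means and fits.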

How the results depend on the processing

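The number of members rhythmic under NRF, the number whose rhythm differed and the number that differed over the 7 contrasts stayed within 1.5 times the reported count under each alternative that gave a value. With the values as deposited, 0 members differed in mean, and between ZT0 and ZT24, 3 differed under DRF and 22 under NRF. The share of all genes that differed was not counted with these values, so the 22 are not read as a result about the members. A pseudocount of 0.1 left 0 members different between ZT0 and ZT24 under NRF. Median-of-ratios scaling gave 3 members with a 12-h component under NRF and 2 different between ZT0 and ZT24 under NRF. Removing the length trend gave 12 members at ZT20, 2 with a 12-h component under NRF and 3 different between ZT0 and ZT24 under NRF. Without the ZT24 libraries, 0 members differed in mean, 2 had a 12-h component under NRF, 1 noncoding ratio was rhythmic under DRF and 0 differed in rhythm. Without the ZT0 libraries, 0 noncoding ratios were rhythmic under DRF. An intensity trend of the variance left 0 members different in mean and 0 between ZT0 and ZT24 under NRF. A pseudocount of 1 in the noncoding ratio gave 3 rhythmic under NRF and 3 different in rhythm. The filter on low values removed 0 genes, so leaving it out gave the reported values. The causes were not tested.

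Replicate numbers did not pair the animals. Deviations of same-numbered libraries had a mean correlation of 0.0048, 33 of 364 pairs were over 0.1, and 18 of 56 libraries correlated best with their own number. With the replicate block, 0 members differed in mean, 0 between ZT0 and ZT24 under NRF, 1 noncoding ratio was rhythmic under DRF and 2 differed in rhythm.

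Leaving out each replicate number in turn gave 11 to 12 members rhythmic under DRF, 14 to 21 different from the rhythm moved by 12 h, 0 to 0 different in mean, 3 to 7 at ZT0, 6 to 12 at ZT4 and 7 to 11 at ZT12. It gave 1 to 7 members with a 12-h component under DRF and 0 to 1 under NRF, 0 to 1 different between ZT0 and ZT24 under DRF and 0 to 2 under NRF, and a median phase shift of 7.06 to 8.66 h. For the noncoding ratio it gave 0 to 0 rhythmic under DRF, 0 to 1 under NRF and 0 to 2 different in rhythm. Over the named members' largest differences, 234 alternative values kept their call, 10 lost it, 5 gained it and none changed sign. A mean scaled count of at least 1 gave 3 members higher and 6 lower at ZT0, 6 and 7 at ZT4, 7 and 6 at ZT12, 3 and 8 at ZT16 and 2 and 7 at ZT20. Depth limits are unknown, since the recovered counts are not reads, and the spread between 4 animals sets the precision.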
